A study of Mus musculus with 4 samples.

Results

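The mast cell genes described here are 9 genes of the 17335 in the RNA-seq table of gonadal white adipose tissue (gWAT): Cpa3, Mcpt4, Cma1, Tpsb2, Tpsab1, Kit, Ms4a2, Fcer1a and Hdc. They were chosen by symbol as well-known products of mast cells. The rule used none of their measured values, but it was set with earlier results of these data known. The tissue came from female mice fed a high-fat diet (HFD) with 60% of calories from fat, for 18 weeks according to the labels. Both groups carried Dnmt1 alleles with loxP sites around exons 4 and 5: fl/fl mice were the control littermates, and AD1KO mice carried in addition a Cre driven by the adiponectin promoter, a promoter active in adipocytes, so that Dnmt1 is deleted in adipocytes and not by design in mast cells or other cells of the pad. RNA of 4 animals per group was pooled in equal amounts and sequenced as 1 library per group on a BGISEQ-500, so no spread between animals was measured and no test between genotypes was possible. Strain and age of these mice are not given in the sources used here. The comparison asks how the transcripts of mast cells in gWAT differed when adipocytes lacked Dnmt1.

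Mast cells are tissue-resident leukocytes of the myeloid line that store histamine, heparin and large amounts of proteases in cytoplasmic granules and release them when antigen crosslinks IgE bound to their high-affinity receptor. They depend on KIT, the receptor for stem cell factor, for survival in tissue. Those of connective tissues such as fat carry chymases, tryptases and carboxypeptidase A3, and their numbers in adipose tissue have been studied in obesity.

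The 250 bases upstream of the start are shown for the 4 members with the highest expression that have a RefSeq promoter entry. They describe sequence only, and a part of these promoters in the levels of the 9 genes was not tested. A RefSeq entry was found for 7 of the 9 members, and Tpsb2 and Tpsab1 had none. Sequences and coordinates are those of RefSeq on GRCm38.p6, printed 5′ to 3′ on the strand of the gene. Capitals mark AGATAA or TGATAA, written on either strand, which are sites of the kind GATA factors bind, and CACATG, an E-box of the kind MITF binds. GATA2 and MITF are transcription factors that mast cells need.

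Mcpt4, chr14:56062311-56062560, minus strand: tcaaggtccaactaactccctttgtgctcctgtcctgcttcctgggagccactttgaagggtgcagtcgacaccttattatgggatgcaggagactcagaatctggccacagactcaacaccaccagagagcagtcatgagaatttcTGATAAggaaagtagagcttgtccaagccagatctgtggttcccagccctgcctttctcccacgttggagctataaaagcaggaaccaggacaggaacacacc
Cma1, chr14:55944676-55944925, minus strand: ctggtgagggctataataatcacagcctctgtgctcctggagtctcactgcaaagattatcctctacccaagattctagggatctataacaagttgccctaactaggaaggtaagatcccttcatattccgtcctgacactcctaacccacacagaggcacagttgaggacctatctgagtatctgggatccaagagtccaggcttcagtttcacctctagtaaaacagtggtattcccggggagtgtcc
Cpa3, chr3:20242182-20242431, minus strand: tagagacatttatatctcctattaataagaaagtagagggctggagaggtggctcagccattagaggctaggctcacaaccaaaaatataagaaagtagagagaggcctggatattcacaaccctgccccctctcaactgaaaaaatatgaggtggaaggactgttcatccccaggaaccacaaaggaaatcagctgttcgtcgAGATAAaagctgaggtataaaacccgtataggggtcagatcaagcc
Fcer1a, chr1:173227230-173227479, minus strand: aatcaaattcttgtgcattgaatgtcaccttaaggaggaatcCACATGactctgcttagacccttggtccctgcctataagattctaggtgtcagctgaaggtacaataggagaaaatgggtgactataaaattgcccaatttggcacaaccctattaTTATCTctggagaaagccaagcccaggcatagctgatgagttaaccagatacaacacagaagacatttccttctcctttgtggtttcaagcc

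The Mcpt4 window held TGATAA at bases 103 to 98 before the start. The Cpa3 window held AGATAA at bases 46 to 41, close to the start of the gene. The Fcer1a window held CACATG at bases 208 to 203 and the reverse complement of AGATAA at bases 92 to 87. No such match was found in the windows of Cma1, Hdc and Kit, whereas that of Ms4a2 held AGATAA 3 times. AGATAA or TGATAA was thus present in 4 of 7 members' windows, against 16.6% of the 32851 windows of the same length in the RefSeq table, and CACATG was present in 1 of 7 against 12.3%. Each is a match of letters in a short window and not a measured site.

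Sequencing depth, as estimated from the deposited FPKM (fragments scaled by transcript length and by library size), was 17745000 reads for fl/fl and 17530000 for AD1KO. The ratio of AD1KO to fl/fl on a log2 scale, with 0.01 FPKM added to both, was taken for the 15839 genes with at least 0.1 FPKM in 1 library, and a gene counted as lower or higher from a log2 ratio of 0.5 on. Its median over these genes was -0.04, the middle 50% lay between -0.36 and 0.27, and the middle 90% between -1.39 and 1.07. Of these genes, 19.1% were lower and 14.3% higher in AD1KO. Dnmt1, the deleted gene, was at 6.99 FPKM in fl/fl against 3.33 in AD1KO, giving a log2 ratio of -1.07 (95% counting interval -1.27 to -0.87). Macrophages also express Dnmt1, and markers of leukocytes were lower in AD1KO too. The part of leukocytes in the Dnmt1 values was not tested. The intervals given for log2 ratios are exact intervals of the estimated reads and cover counting error alone.

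All 9 mast cell genes were detected in both libraries, and all 9 were lower in AD1KO, as were 19.1% of all tested genes. Their log2 ratios ran from -1.62 for Cma1 to -0.62 for Kit, with a median of -1.37, against the -0.04 of all tested genes. A log2 ratio of -1 or below was reached by 7 of the 9, where 8.95% of all tested genes reached it. The whole counting interval lay below -0.5 for 7 of the 9, where this held for 8.28% of all tested genes. The exceptions on both counts were Kit and Ms4a2. Summed over the 9 genes, 382.59 FPKM in fl/fl stood against 140.62 in AD1KO, 36.8% of the control level. The members took 0.0391% of all reads in fl/fl against 0.0146% in AD1KO. In RNA of whole tissue, fewer mast cells and less of these transcripts per mast cell cannot be told apart.

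**Figure D1:**
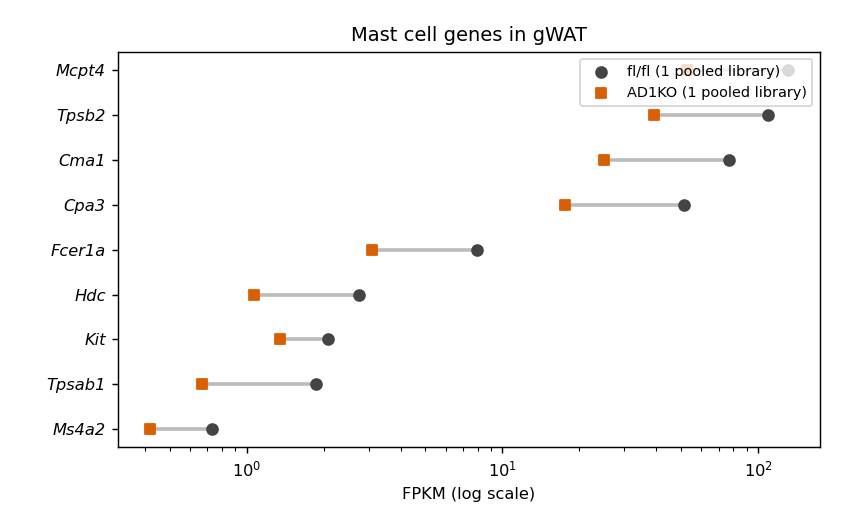
Expression of the 9 mast cell genes in gWAT of fl/fl (circles) and AD1KO (squares), in FPKM on a log axis, with 1 library of 4 pooled animals per group and no error bars. The AD1KO value lies left of the fl/fl value for each of the 9 genes, from Mcpt4 (130.43 against 52.48 FPKM) to Ms4a2 (0.73 against 0.42 FPKM).

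The granule proteases made up most of the signal. Mcpt4, encoding mouse mast cell protease 4, a chymase of connective tissue mast cells, was the most abundant member in both libraries. It was at 130.43 FPKM in fl/fl (2016 estimated reads) against 52.48 FPKM in AD1KO (803 reads), giving a log2 ratio of -1.31 (-1.43 to -1.19). In fl/fl it stood above 95.7% of all tested genes, and in AD1KO above 90.2%. Cma1, which encodes mouse mast cell protease 5, was at 76.61 FPKM in fl/fl (1320 reads) against 24.92 FPKM in AD1KO (425 reads). Its log2 ratio of -1.62 (-1.78 to -1.46) was the lowest of the 9, and 3.74% of all tested genes had a ratio as low or lower. The difference between the log2 ratios of Cma1 and Mcpt4 was -0.31 (-0.51 to -0.11), beyond counting error. Within a library, the FPKM of Mcpt4 was 1.70 times that of Cma1 in fl/fl and 2.11 times in AD1KO.

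Tpsb2, encoding the tryptase mouse mast cell protease 6, was second in both libraries. It was at 108.70 FPKM in fl/fl (1869 reads) against 39.07 FPKM in AD1KO (665 reads), giving a log2 ratio of -1.48 (-1.60 to -1.34). This was 35.9% of the fl/fl level, and 4.42% of all tested genes had a ratio as low or lower. Tpsab1, encoding the related tryptase mouse mast cell protease 7, was at 1.86 FPKM in fl/fl (52 reads) against 0.67 FPKM in AD1KO (19 reads), giving a log2 ratio of -1.46 (-2.28 to -0.65). The tryptases thus stood far apart in level, Tpsb2 at 58.4 times the FPKM of Tpsab1 in fl/fl and 58.3 times in AD1KO, and their log2 ratios differed by -0.04 (-0.83 to 0.81). Tpsab1 is annotated as a protein-coding gene in the GENCODE annotation of mm9 and as a transcribed pseudogene by RefSeq on GRCm38.

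Cpa3 encodes carboxypeptidase A3, an exopeptidase stored with the chymases. It was at 51.48 FPKM in fl/fl (1223 reads) against 17.56 FPKM in AD1KO (413 reads), giving a log2 ratio of -1.55 (-1.71 to -1.39). It differed from Mcpt4 by -0.24 (-0.44 to -0.04) on the log2 scale, whereas the difference of Tpsb2 from Mcpt4, -0.16 (-0.34 to 0.01), was within counting error. The AD1KO levels of the 5 protease genes lay between 32.5% (Cma1) and 40.2% (Mcpt4) of those in fl/fl.

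Summed, the 5 protease genes went from 369.08 FPKM in fl/fl to 134.7 in AD1KO. In reads this was 6480 against 2325, a log2 ratio of -1.46 (-1.53 to -1.39). They supplied 93.4% of the members' reads in fl/fl against 91.0% in AD1KO. The makeup of the protease signal was much alike in both libraries: Mcpt4 gave 35.3% of the summed protease FPKM in fl/fl against 39.0% in AD1KO, Tpsb2 29.5% and 29.0%, Cma1 20.8% and 18.5%, and Cpa3 13.9% and 13.0%. The shares of Tpsab1 were 0.504% and 0.497%.

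The receptors of mast cells were lowly expressed and less alike. Fcer1a, encoding the IgE-binding alpha chain of the high-affinity IgE receptor, was at 7.95 FPKM in fl/fl (128 reads) against 3.08 FPKM in AD1KO (49 reads), giving a log2 ratio of -1.37 (-1.87 to -0.88). Ms4a2, encoding the beta chain that amplifies the signal of this receptor, was the member with the fewest reads. It was at 0.73 FPKM in fl/fl (31 reads) against 0.42 FPKM in AD1KO (18 reads), giving a log2 ratio of -0.78. Its interval of -1.69 to 0.12 includes 0, so at this depth a difference in Ms4a2 could not be told from counting error. The ratios of both chains differed by -0.60 (-1.63 to 0.46), and their summed reads, 159 against 67, gave -1.23 (-1.66 to -0.81).

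Kit, encoding the receptor for stem cell factor, was at 2.08 FPKM in fl/fl (187 reads) against 1.35 FPKM in AD1KO (120 reads). Its log2 ratio of -0.62 (-0.97 to -0.28) was the one nearest to 0 among the members, and 15.7% of all tested genes had a ratio as low or lower. Kit stood above the summed proteases by 0.84 (0.49 to 1.18) and above Fcer1a by 0.74 (0.14 to 1.36) on the scale of log2 ratios, both beyond counting error. Kit is also made by other cells, among them melanocytes, germ cells, progenitors of blood cells and some lymphoid cells.

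Hdc encodes histidine decarboxylase, which makes histamine. It was at 2.75 FPKM in fl/fl (112 reads) against 1.07 FPKM in AD1KO (43 reads), giving a log2 ratio of -1.35 (-1.91 to -0.84). Its AD1KO level was 38.9% of that in fl/fl, close to the 38.7% of Fcer1a. Hdc differed from the summed proteases by 0.10 (-0.45 to 0.62) and Fcer1a by 0.09 (-0.42 to 0.58), both within counting error. For Ms4a2 this difference was 0.69 (-0.23 to 1.58). Without the proteases, the other 4 members summed to 459 reads in fl/fl against 230 in AD1KO, giving a log2 ratio of -0.98 (-1.21 to -0.75).

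**Figure D2:**
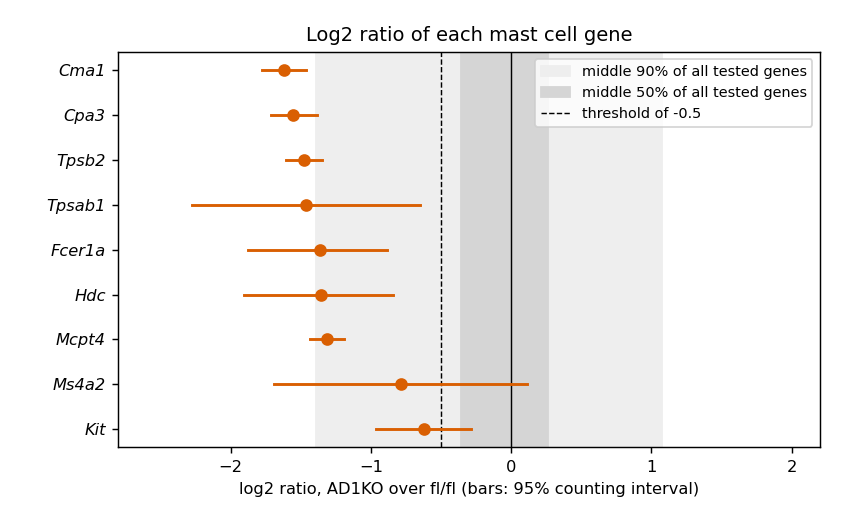
Ratio of AD1KO to fl/fl, as log2, for each mast cell gene (points) with its exact 95% counting interval (bars), which holds no spread between animals. Grey bands mark the middle 50% and the middle 90% of all tested genes, and the dashed line the threshold of -0.5. The ratios of 7 genes lie between -1.62 and -1.31, while Kit and Ms4a2 lie at -0.62 and -0.78, and the bar of Ms4a2 crosses 0.

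The order of the members by FPKM was the same in both libraries except that Hdc and Kit changed places. In fl/fl it ran Mcpt4, Tpsb2, Cma1, Cpa3, Fcer1a, Hdc, Kit, Tpsab1 and Ms4a2. The counting intervals of neighbours overlapped in 2 of 8 pairs in fl/fl, Hdc with Kit and Kit with Tpsab1. In AD1KO they overlapped in 3 of 8 pairs, Kit with Hdc, Hdc with Tpsab1 and Tpsab1 with Ms4a2. The change of places between Hdc and Kit was thus within counting error in each library. From the top to the bottom of the list, the FPKM of Mcpt4 was 179 times that of Ms4a2 in fl/fl and 125 times in AD1KO.

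The members lie at 7 places in the mm9 genome. The chymase locus on chromosome 14 holds Cma1 (chr14:56560290-56563498, minus strand) and Mcpt4 (chr14:56678581-56681147, minus strand), separated by 115 kb. The tryptase locus on chromosome 17 holds Tpsab1 (chr17:25480190-25482507, minus strand) and Tpsb2 (chr17:25503486-25505804, plus strand), separated by 21.0 kb and transcribed away from each other. Cpa3 lies at chr3:20115516-20142080, Fcer1a at chr1:175151402-175157360, Hdc at chr2:126419403-126445035 and Ms4a2 at chr19:11690013-11698209, each on the minus strand. Kit lies on the plus strand at chr5:75970941-76052747. These spans run over the whole gene, exons and introns together.

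At both loci the neighbours of the members were at low levels. The chymase locus counts 15 protein-coding genes over 321 kb, of which 9 were in the table. Between Cma1 and Mcpt4 lie Cma2, at 0.20 FPKM in fl/fl against 0.07 FPKM in AD1KO, and Mcpt9, at 0.06 FPKM in fl/fl and listed at 0 in AD1KO. Mcpt1 and Mcpt2, the chymases known from mucosal mast cells, also lie there and were not in the table. Gzme, a granzyme gene at the same locus, was at 0.21 FPKM in fl/fl against 0.50 FPKM in AD1KO, with 3 and 7 estimated reads and an interval of its log2 ratio from -0.89 to 3.82. Gzmb, at the far end of the locus, had 80 reads in fl/fl against 13 in AD1KO, and Ctsg, encoding cathepsin G, had 16 against 4 (-1.97, -4.02 to -0.35). The tryptase locus counts 7 genes over 76.0 kb, 5 of them in the table. The loci were examined after the members' values were known.

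**Figure D3:**
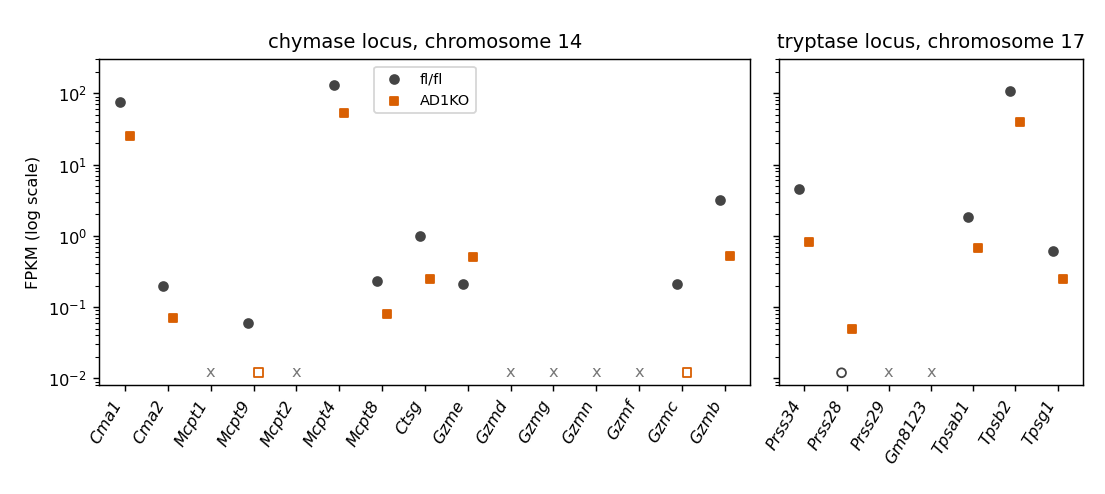
FPKM (log axis) of the genes of the chymase locus on chromosome 14 and of the tryptase locus on chromosome 17, in order along the chromosome and not to scale, in fl/fl (circles) and AD1KO (squares). Open symbols near the bottom are genes listed at 0 in that library, and crosses are genes not in the table. Cma1, Mcpt4 and Tpsb2 stand above 20 FPKM in both libraries, and no other gene of either locus exceeds 4.52 FPKM.

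Related members can share reads, which the counting divides in a way not stated. In their coding sequences, Tpsb2 and Tpsab1 were identical at 638 of 827 aligned bases (77.1%), and Cma1 and Mcpt4 at 514 of 721 (71.3%). Of the 50-base stretches in the GENCODE transcripts of each member, 58 of 941 in Mcpt4 (6.16%) also occurred in another gene, Cma2 or Mcpt9. For the other 8 members none did. Cma2 and Mcpt9 themselves had 3 and 2 estimated reads in fl/fl.

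Beyond the 9 members, the other genes of mast cell function were counted list by list. Of 9 further protease genes of mast cells or basophils, 6 could be tested and 6 of 6 were lower, with a median log2 ratio of -1.69, or -0.53 with 1 FPKM added in place of 0.01. The whole interval lay below -0.5 for 2 of the 6, Prss34 and Gzmb, and Cma2 and Mcpt8 rested on 3 reads in fl/fl and 1 in AD1KO each. Gzmb, encoding granzyme B of cytotoxic lymphocytes and some mast cells, was at 3.20 FPKM in fl/fl against 0.53 FPKM in AD1KO (-2.57, -3.57 to -1.75). Prss34, encoding mouse mast cell protease 11, a tryptase made mainly by basophils, was at 4.52 FPKM in fl/fl against 0.83 FPKM in AD1KO, and its log2 ratio of -2.43 (-3.31 to -1.66) lay below that of each member at the same locus. Of the surface and identity genes, 9 of 16 tested were lower and 2 higher, with a median of -0.81. Mrgprb1 and Mrgprb2, singled out after their values were seen, encode receptors of the Mas-related family, of which the Mrgprb2 product lets mast cells degranulate without IgE. Mrgprb1 was at 1.91 FPKM in fl/fl against 0.67 FPKM in AD1KO (-1.50, -2.01 to -1.02), and Mrgprb2 at 1.34 against 0.55 FPKM (-1.27, -2.14 to -0.49), both within the range of the 9 members. Cd34, which adipose progenitors and endothelium also express, was the most abundant gene of this list and was at 55.11 FPKM in fl/fl against 56.54 FPKM in AD1KO (0.04, -0.04 to 0.12). Itgb7 was at 15.05 FPKM in fl/fl against 7.23 FPKM in AD1KO (-1.06, -1.25 to -0.86), and Cnrip1 at 5.95 against 5.40 FPKM (-0.14, -0.48 to 0.21). Adora3 had the lowest ratio among genes with at least 10 reads, with 24 estimated reads in fl/fl against 4 in AD1KO (-2.45, -4.55 to -1.03). Higher in AD1KO were Maob, encoding monoamine oxidase B, at 14.74 against 22.03 FPKM (0.58, 0.43 to 0.73), and Cd33, encoding a sialic acid-binding receptor of myeloid cells, at 1.14 against 1.72 FPKM (0.59, 0.22 to 0.97). With 1 FPKM added in place of 0.01, the median of the list was -0.30.

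Genes of granule storage and heparin were mixed: 5 of 11 were lower, 1 was higher, and the median was -0.43. The higher gene was Rab27b, at 0.46 FPKM in fl/fl against 0.85 FPKM in AD1KO (0.87, 0.41 to 1.38). Srgn, encoding serglycin, the proteoglycan core to which the members' proteases bind in the granule, was at 117.48 FPKM in fl/fl against 68.72 FPKM in AD1KO (-0.77, -0.86 to -0.69). Srgn is made by many other blood cells and was at a level near that of Mcpt4. Among 10 transcription factor genes 5 were lower and none higher, with a median of -0.57, or -0.22 with 1 FPKM added. Spi1, the most abundant of these, was at 129.29 FPKM in fl/fl against 60.18 FPKM in AD1KO (-1.10, -1.19 to -1.01). Its ratio was the lowest among those with at least 10 reads, and that of Meis2 the highest (0.21, -0.02 to 0.46). Mitf and Gata2, singled out as the factors whose motifs were searched, were within the threshold: Mitf was at 5.47 FPKM in fl/fl against 3.88 FPKM in AD1KO (-0.49, -0.71 to -0.28), and Gata2 at 3.01 against 2.46 FPKM (-0.29, -0.63 to 0.05). Gata2 is also expressed by adipocyte precursors and Mitf by macrophages.

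The IgE receptor of which Fcer1a and Ms4a2 are chains signals through genes shared with other leukocytes, and of 16 such genes 14 were lower in AD1KO and none higher, with a median of -1.07. Fcer1g, encoding the gamma chain that this receptor shares with Fc receptors of macrophages, was at 862.02 FPKM in fl/fl against 325.18 FPKM in AD1KO (-1.41, -1.46 to -1.34). Its level in each library was above that of all 9 members summed.

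Kitl, encoding stem cell factor, the ligand of KIT, was at 8.44 FPKM in fl/fl against 6.45 FPKM in AD1KO, and its log2 ratio of -0.39 (-0.54 to -0.23) was within the threshold. Of the 8 growth and activating factors tested, Kitl included, 2 were lower and 2 higher, and the median was 0.02. Counted as lower were Tgfb1, at 101.11 FPKM in fl/fl against 56.35 FPKM in AD1KO (-0.84, -0.92 to -0.76), and Il4, with 2 and 1 estimated reads. Tgfb1 gave most of the summed level of this list, 120.91 FPKM in fl/fl against 75.21 FPKM in AD1KO. Both genes counted as higher, Il13 and Il5, were listed at 0 in fl/fl and had 7 and 3 estimated reads in AD1KO. With Il13 set at a floor of 3 reads and Il5 left out, the median over 7 genes was 0.01. For the receptors of these factors, a list that includes Kit, 9 of 10 were lower and 1 was higher, with a median of -0.67, near the value of Kit itself.

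For the histamine that Hdc makes, Hnmt, encoding an enzyme that inactivates it, was at 14.88 FPKM in fl/fl against 16.33 FPKM in AD1KO (0.13, -0.06 to 0.34). In the list of 7 tested receptors and enzymes that sense or degrade mast cell products, to which Hnmt belongs, 3 were lower and none higher, with a median of -0.42. Of 7 genes of eicosanoid synthesis 3 were lower and none higher, with a median of -0.14. Hpgds, the prostaglandin D2 synthase of hematopoietic cells, was at 27.11 FPKM in fl/fl against 11.57 FPKM in AD1KO (-1.23, -1.37 to -1.09), within the range of the members. Alox5ap was at 138.94 FPKM in fl/fl against 65.85 FPKM in AD1KO (-1.08, -1.18 to -0.97). Ltc4s, leukotriene C4 synthase and the most abundant of this list, was at 285.16 against 345.38 FPKM (0.28, 0.21 to 0.35), and Ptgs1, a cyclooxygenase, had the highest ratio (0.37, 0.06 to 0.68), both within the threshold.

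**Figure D4:**
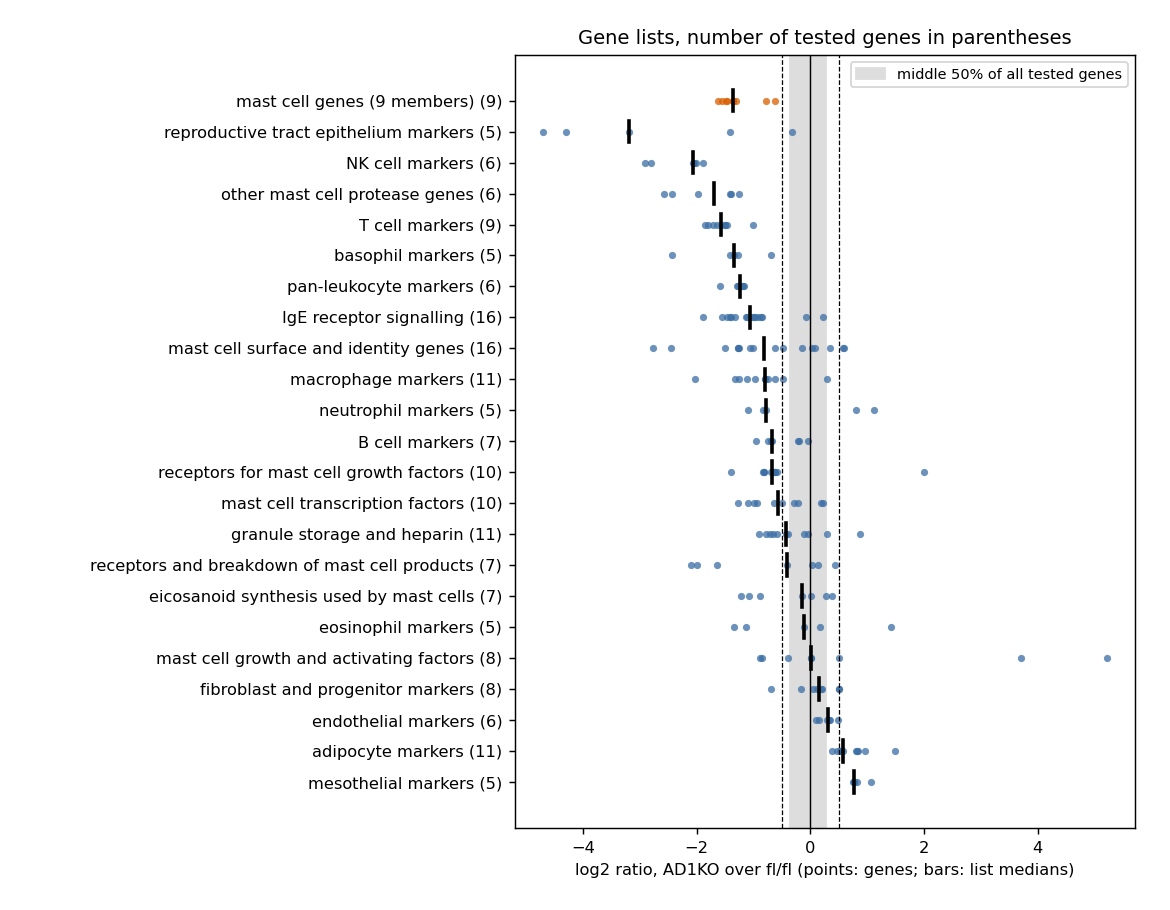
Ratios of AD1KO to fl/fl, as log2, for the mast cell members (top) and for the lists of mast cell functions and of markers of other cell types, ordered by median. Points are single tested genes, vertical bars list medians, dashed lines the thresholds of -0.5 and 0.5, and the grey band the middle 50% of all tested genes. The members' median (-1.37) lies near those of the basophil (-1.34) and pan-leukocyte (-1.24) markers, while adipocyte (0.58) and mesothelial (0.76) markers lie on the other side of 0. Genes listed at 0 in 1 library are drawn with the 0.01 FPKM added, which gives no bound.

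Markers of other leukocytes moved beside the mast cell genes. All 6 pan-leukocyte markers (Ptprc, Cd52, Coro1a, Laptm5, Cd53 and Tyrobp) were lower, with log2 ratios from -1.59 (Cd52) to -1.16 (Laptm5). Their summed reads gave -1.25 (-1.27 to -1.22). The summed reads of the proteases were lower than these by -0.21 (-0.29 to -0.14) on the log2 scale, beyond counting error. On summed FPKM the log2 ratios were -1.45 for the proteases and -1.31 for the markers, a smaller gap. The size of the gap thus depends on how the genes are weighted, which the interval does not cover. T cell markers were lower in 9 of 9 with a median of -1.58, NK cell markers in 6 of 6 (-2.05), macrophage markers in 9 of 11 (-0.81), and B cell markers in 4 of 7 (-0.68). Relative to the summed FPKM of the pan-leukocyte markers, 7 members lay between -0.31 (Cma1) and -0.0037 (Mcpt4), and Kit and Ms4a2 lay above, at 0.69 and 0.53. For Ms4a2 this was within counting error, as the interval of its own ratio, -1.69 to 0.12, includes the -1.31 of the markers. Tyrobp and Cd52 gave 1077.24 and 833.69 of the markers' 2494.53 FPKM in fl/fl, so these relative values rest mainly on those genes. Neutrophil markers were split, with 3 of 5 lower and 2 higher and a summed level of 44.19 FPKM in fl/fl against 64.17 FPKM in AD1KO. S100a8 gave 32.72 and 57.28 of these, and without it the sum was 11.47 FPKM in fl/fl against 6.89 FPKM in AD1KO. The part of other leukocytes in the levels of the shared genes above was not tested.

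Basophils also make Fcer1a, Ms4a2 and Hdc. Basophil markers were lower in 5 of 5 tested, with a median of -1.34, or -0.46 with 1 FPKM added, at a summed 42.31 FPKM in fl/fl against 23.68 FPKM in AD1KO, of which Il3ra, also made by other cells, gave 35.99 and 22.14. Prss34, at 4.52 and 0.83 FPKM, was above Hdc and Ms4a2 in fl/fl, while Mcpt8, encoding the basophil protease mouse mast cell protease 8, was at 0.23 and 0.08 FPKM with 3 and 1 reads. The part of basophils in the values of Fcer1a, Ms4a2 and Hdc was not tested. Of the eosinophil markers 2 of 5 were lower and 1 was higher, with a median of -0.11.

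Markers of adipocytes moved the other way, 9 of 11 higher with a median of 0.58, as did all 5 mesothelial markers (0.76). Endothelial markers, 0 of 6 past the threshold in either direction (0.30), and fibroblast markers, 1 of 8 lower and 1 higher (0.15), had medians nearer to 0. Epithelial markers of the reproductive tract, which lies next to this fat pad in females, were low in both libraries and differed between them, with a summed 8.44 FPKM in fl/fl against 1.26 FPKM in AD1KO and 4 of 5 tested lower. 2 of these 6 markers, Pax8 and Foxa2, were listed at 0 in AD1KO and none in fl/fl. The part of this difference in the tissue sampled, and that of the higher share of adipocyte transcripts, in the values of the mast cell genes was not tested.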

How the data were processed

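RNA of gWAT from 4 female mice per group was pooled, enriched for mRNA with oligo(dT) and sequenced as 1 library for fl/fl and 1 for AD1KO. Clean reads were aligned to mm9 according to the paper, and the result was deposited as FPKM per gene, in which 0.01 stands for 0. The sample labels list mm10 beside mm9 as genome builds. The aligner and the counting program are not given in the sources used here. The table holds FPKM and not read counts, and its unit was inferred from the values. Columns with the authors' own comparison (fold change, P-value and false discovery rate) were not used, nor were the bisulfite sequencing samples.

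The 9 members and the 22 other gene lists were chosen with earlier results of these data known. Genes written as 0.01 were taken as 0. Ratios of AD1KO to fl/fl were formed on a log2 scale after adding 0.01 FPKM to each value. A gene was tested where either library had at least 0.1 FPKM, against a threshold of 0.5 in either direction, the one the study used. Depth was estimated by finding the number of reads and the length correction (119 bases in fl/fl, 117 in AD1KO) that turned FPKM of genes with under 15 reads into whole reads. Of these genes, 85.4% of 1178 in fl/fl and 84.4% of 1230 in AD1KO came within 0.2 of a whole number. Intervals at 95% are Clopper-Pearson intervals for ratios of reads, exact conditional intervals of the odds ratio for differences between log2 ratios, and Poisson intervals for levels. Reads carried no molecular identifiers, so they cover counting error only. The steps were tested on simulated data.

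All 9 members were named with full values. In each other mast cell list the genes to name were the up to 4 with the highest FPKM and those with the lowest and highest log2 ratio among genes with at least 10 reads. The text gives some of them, so the named genes do not stand for their list, for which the counts and medians are given. Genes outside this rule are said to be singled out, given as neighbours at a locus or named because they rest on few reads. Marker lists of other cells were given as counts, medians and sums. Some genes of these marker lists were also named after their values were seen. Gene positions come from the GENCODE annotation of mm9 and promoters from RefSeq. Alternatives were a scaling (trimmed mean of M-values, upper quartile or median of ratios), pseudocounts of 0.1 and 1 FPKM, no filter or one at 1 FPKM, a threshold of 1, the whole interval past the threshold, leaving out Mcpt4, summing the tryptases and scaling to the pan-leukocyte markers. Software was Biopython 1.88, pandas 2.3.3, SciPy 1.17.1, NumPy 2.4.6 and Matplotlib 3.10.9 under Python 3.11.15.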

Additional observations from a re-analysis of the deposited data

How the results depend on the processing

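The count of 9 lower members became 8 with a filter at 1 FPKM. It became 7 with a pseudocount of 1 FPKM, a threshold of 1 or the whole interval past 0.5. Under the other alternatives run for the count it stayed 9. Scaling to the pan-leukocyte markers was not among these, and under it no member lay at or below -0.5. The members' median, also not taken under that scaling, ranged from -1.41 to -1.13. Scaling by trimmed mean of M-values, upper quartile or median of ratios shifted every ratio by 0.04, 0.09 or 0.04 and changed no member's call. With a pseudocount of 1 FPKM, Kit (-0.39) and Ms4a2 (-0.28) no longer passed the threshold. Relative to the summed pan-leukocyte markers, Cpa3 moved to -0.24, Mcpt4 to -0.0037, Cma1 to -0.31 and Tpsb2 to -0.17. Tpsab1 moved to -0.15, Fcer1a to -0.056 and Hdc to -0.044. Kit (0.69) and Ms4a2 (0.53) turned to the other direction, which follows from subtracting that sum's own fall of -1.31. For Ms4a2 this turn was within counting error, as its own interval of -1.69 to 0.12 includes that fall. The protease sum without Mcpt4 was -1.54. The median of the neutrophil markers turned to 0.011 both with no filter and with the filter at 1 FPKM, as Mpo entered or Cxcr2 left the list. Over the other list medians and alternatives, 7 values moved by more than the spread between the genes of the list (1 SD) and 166 by less. With a pseudocount of 1 FPKM, several list medians were nearer to 0 by over 1.5 times. These were other mast cell proteases (-0.53), surface and identity genes (-0.30), transcription factors (-0.22), and receptors and enzymes for mast cell products (-0.12). The same held for basophil (-0.46), NK cell (-1.23), eosinophil (-0.023), neutrophil (-0.16) and reproductive tract (-0.32) markers. It also held for Tpsab1 (-0.78), Hdc (-0.86) and the median of the members' receptors (-0.39).

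Depth limits Ms4a2 and Tpsab1 most, with 18 and 19 reads in AD1KO. With 1 pooled library per group, leaving out a replicate was not possible, and the difference between these libraries has no check against the spread between animals. No paired analysis was possible because each group has 1 library.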
